A study of Mus musculus with 18 samples.

Results

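The constitutive proteasome subunits were followed across 18 samples of ventricular myocardium of lean and leptin-deficient mice. Genes were taken whose symbol is Psma, Psmb, Psmc or Psmd followed by a digit, leaving out the inducible immunoproteasome genes Psmb8, Psmb9 and Psmb10. This gave 37 of the 18193 genes on the array. Of these, 31 encode subunits of the constitutive particle and passed the filter on low signal, 3 encode assembly chaperones of the regulatory particle (Psmd5, Psmd9 and Psmd10), and Psmc3ip, a meiotic recombination factor, matched by its symbol alone. The remaining pair lay under the filter, namely Psma8, a testis-type alpha subunit with a mean signal of 11.4, and Psmb11, the beta subunit of thymic epithelium with a mean signal of 4.23. The filter left 35 of the 37 genes among the 13359 tested.

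The proteasome is the protease that degrades ubiquitin-tagged proteins, and in heart muscle it turns over sarcomeric and regulatory proteins. Its barrel-shaped core is built from rings of alpha subunits, which gate the entry, and rings of beta subunits, of which Psmb5, Psmb6 and Psmb7 carry the protease activity. The regulatory particle that caps the core consists of a base, with a ring of ATPases (Psmc genes) that unfold the substrate, and a lid, which removes the ubiquitin chain.

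RNA was hybridised to Affymetrix arrays, 1 array per sample. All animals were of C57Bl/6J background, and the groups differed in genotype and treatment. The first group held ob/ob mice, which lack functional leptin, given recombinant mouse leptin by osmotic mini-pump (n = 5). The second held calorie restricted ob/ob mice whose food was matched to the intake of the leptin group (n = 5), and the third ob/ob mice that went on feeding ad libitum (n = 4). The ob/ob mice had been aged to 6 months before 1 month of treatment. Wild type C57Bl/6J mice, given as 6 months old on the samples and as 6 to 8 months in the study's design, made the fourth group (n = 4).

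Signals are MAS5 intensities, which the authors scaled to the same trimmed mean on every array. Ventricular cardiomyocyte markers were present on every array, with a summed signal of the 12 genes between 66010 and 99190. Of the 12, 0 were called between calorie restricted and ad libitum hearts or between leptin and calorie restricted hearts. Their log2 change was positive in 11 of 12 for calorie restricted against ad libitum hearts, with a median of 0.09. For leptin against calorie restricted hearts it was positive in 5 of 12, with a median of -0.05. The part of this shift in the subunits' change was not tested. Calorie restricted replicates 2 and 3 stood apart in atrial transcripts, with a mean log2 signal of 9.05 and 9.31 over 10 atrial markers, while the other 16 arrays lay between 5.65 and 7.47. Fibroblast and macrophage markers also moved between the groups, with the values given beside the results below. In tissue RNA, fewer cells of a type and less RNA per cell cannot be told apart.

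The 31 subunits were measured well above the low end of the array. Their mean signals over the 18 arrays ranged between 303.9 (Psmd13) and 3412 (Psmb7), between the 77.4th and 98.7th percentile of the tested genes. Signals of different probe sets are not a scale of abundance, so only differences between groups were compared. Within a group the coefficient of variation had a median of 7.17% over the subunits and groups, with a range of 1.70% to 23.7%.

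The comparison of calorie restricted with ad libitum hearts asks what food restriction did in the absence of leptin. Psmd4, Psmc1 and Psmb4 rose in calorie restricted hearts, by 1.37-fold, 1.34-fold and 1.23-fold. None was called lower. Psmd4 and Psmc1 both belong to the base of the regulatory particle, Psmd4 as a ubiquitin receptor and Psmc1 as an ATPase of its ring. Psmb4 is a beta subunit of the core without protease activity. In all, 3 of the 35 tested genes were called higher and 0 lower at an adjusted p under 0.05 in limma, with 5.42% of all genes called in either direction, 2.46% higher and 2.96% lower. At an unadjusted p under 0.05, 9 were higher and 0 lower, where 8.95% of all genes were higher and 10.2% lower.

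The comparison of leptin with calorie restricted hearts sets leptin against its absence at matched food intake. Psmd4, Psmc1 and Psmb4 were lower in leptin hearts, by 0.32, 0.37 and 0.29 on the log2 scale, and so were the lid subunits Psmd13 and Psmd12, by 0.28 and 0.22. The called genes were 5 of 35, all lower, with 13.6% of all genes called in either direction, 7.91% higher and 5.73% lower. The share of members called in either direction, 14.3%, was near that of all genes. At an unadjusted p under 0.05, 11 were lower and 0 higher, where 12.7% of all genes were lower and 14.3% higher. Both comparisons use the same 5 calorie restricted arrays, so their values are not independent.

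Psmd4 had signals of 901, 908, 774, 830 and 795 in leptin hearts, of 963, 1081, 1103, 1053 and 1049 in calorie restricted hearts, of 787, 741, 738 and 786 in ad libitum hearts, and of 838, 738, 806 and 771 in wild type hearts. Every calorie restricted array lay above each of the 13 other arrays, and the other groups overlapped. Group means were 841 ± 60.8 in leptin, 1050 ± 53.3 in calorie restricted, 763 ± 27.4 in ad libitum and 788 ± 43.4 in wild type hearts (SD, n = 5, 5, 4 and 4). The log2 change was 0.46 ± 0.07 for calorie restricted against ad libitum hearts (SE, limma adjusted p = 0.00134) and -0.32 ± 0.07 for leptin against calorie restricted hearts (adjusted p = 0.00483). Psmd4 was also higher in calorie restricted than in wild type hearts, by 0.41 ± 0.07 (adjusted p = 0.00153). These calls did not depend on any single array. A second Psmd4 probe set with a lower signal changed the same way, by 0.35 (adjusted p = 0.0778) for calorie restricted against ad libitum and by -0.37 (adjusted p = 0.0256) for leptin against calorie restricted hearts. Another set, with a mean signal of 33.2, had an SE of 0.52 and 0.49 in these comparisons. With all 3 sets averaged, Psmd4 was not called, with changes of 0.32, -0.29 and 0.31 in the 3 comparisons and adjusted p between 0.330 and 0.391, the highest of the range of 0.000134 to 0.391 over the alternatives.

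Psmc1 had signals of 533, 607, 605, 522 and 599 in leptin hearts, of 763, 779, 636, 721 and 816 in calorie restricted hearts, of 606, 482, 558 and 570 in ad libitum hearts, and of 674, 637, 670 and 592 in wild type hearts. All calorie restricted arrays exceeded all leptin and all ad libitum arrays, while the calorie restricted and wild type ranges overlapped through replicate 3 of the calorie restricted group. The changes were 0.42 ± 0.09 for calorie restricted against ad libitum (adjusted p = 0.0108) and -0.37 ± 0.08 for leptin against calorie restricted hearts (adjusted p = 0.00804). Wild type Psmc1 lay between these groups: calorie restricted hearts were 0.20 above wild type (adjusted p = 0.169) and ad libitum hearts -0.22 from wild type (adjusted p = 0.438). With the atrial marker level as a covariate, the Psmc1 change against ad libitum hearts was 0.42 with an adjusted p of 0.0582, and with only these 2 groups in the fit the adjusted p was 0.0701, in a range of 0.00269 to 0.0701 over 22 alternatives.

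Psmb4 had signals of 1592, 1686, 1601, 1474 and 1479 in leptin hearts, of 1620, 2062, 1924, 1895 and 2115 in calorie restricted hearts, of 1642, 1407, 1586 and 1579 in ad libitum hearts, and of 1586, 1520, 1428 and 1644 in wild type hearts. The first calorie restricted array lay within the range of each other group and the other 4 lay above all 13 other arrays. The changes were 0.30 ± 0.08 for calorie restricted against ad libitum (adjusted p = 0.0457), -0.29 ± 0.08 for leptin against calorie restricted (adjusted p = 0.0224) and 0.31 ± 0.08 for calorie restricted against wild type hearts (adjusted p = 0.0246). The Psmb4 call against ad libitum hearts ended when any 1 of the 4 ad libitum arrays or of calorie restricted replicates 2 to 5 was left out, with adjusted p between 0.0141 and 0.130 over the single arrays. It ended in 14 of 22 alternatives in all, with adjusted p up to 0.199. The Psmb4 call of leptin against calorie restricted ended without calorie restricted replicate 2 or 5 or leptin replicate 4 or 5, with adjusted p between 0.00648 and 0.0607. The call against wild type ended without calorie restricted replicate 2 or 5 or wild type replicate 2 or 3, with adjusted p between 0.00680 and 0.0781. Psmb4 has a second probe set, with a mean signal of 1365. With both sets averaged, the change against ad libitum hearts was 0.33 (adjusted p = 0.0283). That of leptin against calorie restricted hearts was -0.34 (adjusted p = 0.00859), and the call against wild type ended.

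Psmd13, a scaffold subunit of the lid, had signals of 266, 305, 272, 286 and 281 in leptin hearts, of 310, 345, 329, 347 and 384 in calorie restricted hearts, of 299, 290, 314 and 280 in ad libitum hearts, and of 297, 286, 287 and 292 in wild type hearts. Calorie restricted arrays lay above all leptin and all wild type arrays, and overlapped the ad libitum range through replicate 1. Psmd13 changed by -0.28 ± 0.07 in leptin against calorie restricted hearts (adjusted p = 0.0112) and by 0.23 ± 0.07 in calorie restricted against wild type hearts (adjusted p = 0.0447). The value for calorie restricted against ad libitum hearts was 0.21 (adjusted p = 0.104). The Psmd13 call against wild type ended without any 1 of the 4 wild type arrays or calorie restricted replicates 2 to 5, with adjusted p up to 0.109. It ended in 16 of 22 alternatives in all. Psmd13 has 3 probe sets over the filter, the chosen one with a mean signal of 304 and others of 169 and 22.1. With these averaged the change against wild type was 0.06 (adjusted p = 0.692), and that of leptin against calorie restricted hearts was -0.17 (adjusted p = 0.106). In the fit with only the leptin and calorie restricted groups the adjusted p was 0.0589.

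Psmd12, another lid scaffold subunit, had signals of 888, 950, 859, 869 and 847 in leptin hearts, of 1001, 1063, 981, 999 and 1083 in calorie restricted hearts, of 895, 826, 950 and 874 in ad libitum hearts, and of 970, 911, 906 and 893 in wild type hearts. All 5 calorie restricted arrays lay above the 13 others. Psmd12 changed by -0.22 ± 0.06 in leptin against calorie restricted hearts (adjusted p = 0.0279), and was at 0.21 (adjusted p = 0.0735) for calorie restricted against ad libitum and 0.16 (adjusted p = 0.146) for calorie restricted against wild type hearts. The call ended without calorie restricted replicate 2 or 5 or leptin replicate 3, 4 or 5, with adjusted p up to 0.0673.

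**Figure D1:**
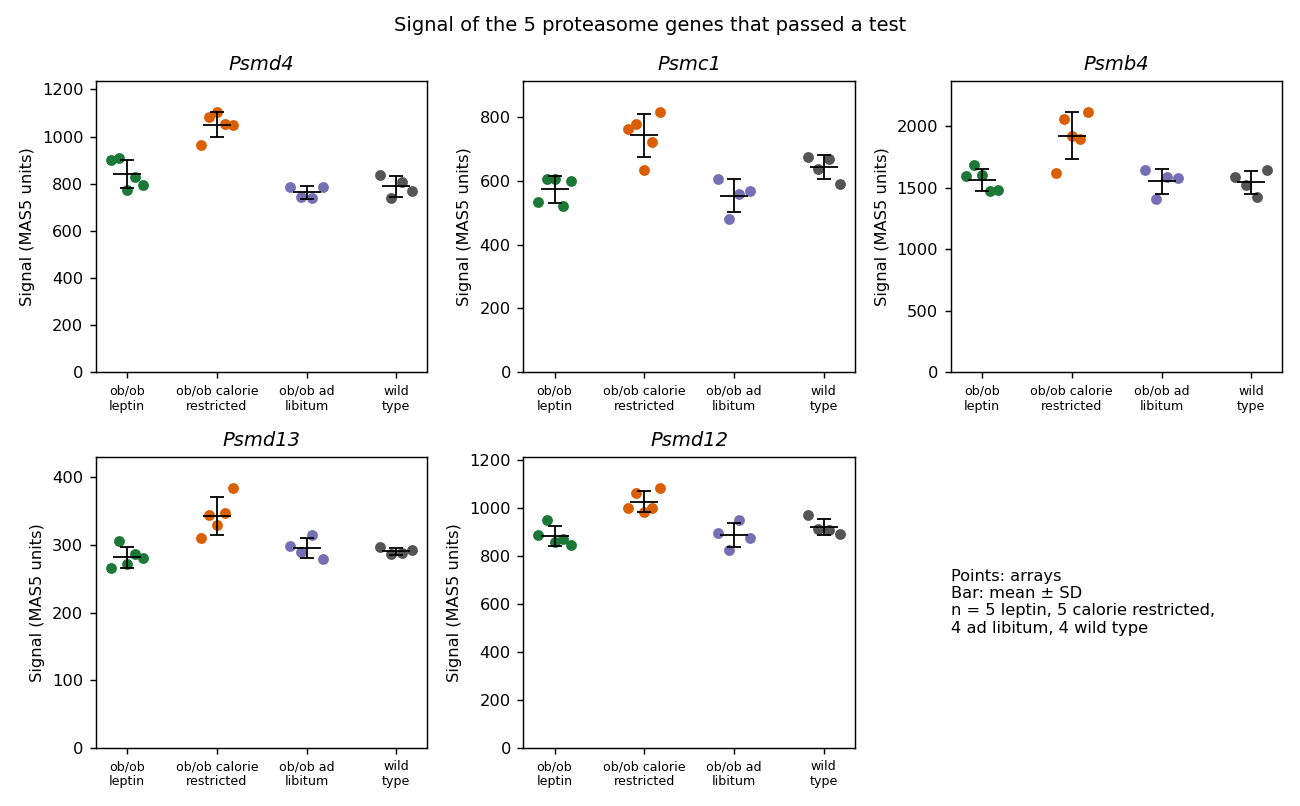
MAS5 signal (y axis, from 0) of the 5 called subunits in each array, by group (x axis, n = 5 leptin, 5 calorie restricted, 4 ad libitum and 4 wild type), with the mean and SD. For Psmd4 and Psmd12 all 5 calorie restricted points lie above the 13 others, and for Psmb4 the first calorie restricted point, at 1620, lies among the other groups.

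Arrays of a group did not overlap those of another for more subunits than were called. Calorie restricted arrays all exceeded ad libitum arrays for 4 of 35 genes, Psmc1, Psmc3, Psmd12 and Psmd4, where 4.33% of all genes did so, and lay below them for 0, against 4.87%. All leptin arrays lay below all calorie restricted arrays for 7 of 35, the same 4 and Psma6, Psmd1 and Psmd13, against 4.57% of all genes, and above them for 0, against 6.3%. Calorie restricted arrays lay above all wild type arrays for 4 of 35 (Psmc3, Psmd12, Psmd13 and Psmd4), against 6.68%, and below them for 1, the alpha subunit Psma1, against 6.89%. Ad libitum arrays lay above all wild type arrays for 1 of 35 (Psmc3ip), against 3.65%, and below them for 2 (Psma7 and Psmc2), against 3.41%. Leptin arrays lay apart from the ad libitum arrays for 0 of 35, against 2.81% higher and 2.53% lower over all genes, and from the wild type arrays for 0 of 35, against 1.59% and 1.65%. Calorie restricted arrays lay above all 13 other arrays for 3 of 35, Psmc3, Psmd12 and Psmd4, against 1.62% of all genes. Psmc3, an ATPase of the base ring, had signals of 1329, 1292, 1243, 1320 and 1267 in leptin hearts, of 1351, 1397, 1367, 1454 and 1524 in calorie restricted hearts, of 1324, 1210, 1341 and 1265 in ad libitum hearts, and of 1295, 1288, 1221 and 1295 in wild type hearts. The separation was narrow, and Psmc3 did not pass the limma test, with values of 0.14 against ad libitum hearts (adjusted p = 0.220) and of -0.13 for leptin against calorie restricted hearts (adjusted p = 0.147).

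Most log2 changes were positive in calorie restricted against ad libitum hearts and negative in leptin against calorie restricted hearts, and most were small. The log2 change of calorie restricted against ad libitum hearts was positive for 26 of 35 genes (74.3%, against 49.7% of all genes), with a median of 0.09 against -0.0016 over all genes. The change of leptin against calorie restricted hearts was positive for 6 of 35 (17.1%, against 46.1%), with a median of -0.12 against -0.03. The median SE of a single gene was 0.09. After quantile normalization the medians were 0.05 and -0.13.

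By part of the particle, the counts differed, and no test between parts was made. Of the beta ring, all 7 subunits had their highest group mean in calorie restricted hearts, among them the catalytic Psmb5, Psmb6 and Psmb7, but only Psmb4 was called. Psmb5 averaged 1396 ± 24.8 in leptin, 1551 ± 99.1 in calorie restricted, 1466 ± 151 in ad libitum and 1376 ± 38.5 in wild type hearts. All 3 non-ATPase subunits of the base, Psmd1, Psmd2 and Psmd4, were also highest in calorie restricted hearts, Psmd4 alone being called. Psmd2, a scaffold of the base, had signals of 1354, 1511, 1181, 1219 and 1127 in leptin, 1344, 1409, 1657, 1582 and 1375 in calorie restricted, 1160, 1181, 1389 and 1530 in ad libitum and 1236, 1237, 1431 and 1412 in wild type hearts, with all 4 ranges overlapping. Among the 7 alpha subunits, 3 were highest in calorie restricted hearts and 4 in wild type hearts, and 0 were called in any comparison with the chosen probe sets. Psma6 had signals of 1504, 1666, 1544, 1595 and 1467 in leptin, 1784, 1814, 1697, 1829 and 1841 in calorie restricted, 1740, 1570, 1411 and 1248 in ad libitum and 1742, 1548, 1513 and 1553 in wild type hearts. Its leptin arrays lay below its calorie restricted arrays, while 1 ad libitum and 1 wild type array reached the calorie restricted range, and the values were -0.21 for leptin against calorie restricted hearts (adjusted p = 0.112) and 0.27 for calorie restricted against ad libitum hearts (adjusted p = 0.0782). A second Psma6 probe set, with a mean signal of 1031, was at -0.22 (adjusted p = 0.0186) and 0.18 (adjusted p = 0.108) in these comparisons. Psma1 was at -0.05 for calorie restricted against ad libitum hearts with its chosen set (adjusted p = 0.855), while a set with a mean signal of 22.7 was at -0.75 (adjusted p = 0.0262). With both sets averaged, Psma1 was called lower in calorie restricted than in ad libitum hearts, at -0.40 (adjusted p = 0.0343), opposite to the called subunits. Psmb7 had signals of 3390, 3372, 3008, 3573 and 2982 in leptin, 3297, 3749, 3671, 3906 and 3764 in calorie restricted, 3428, 3223, 3786 and 3427 in ad libitum and 3228, 3020, 3259 and 3323 in wild type hearts, with the lowest calorie restricted array inside every other range. Over the 31 subunits the highest mean was in leptin hearts for 1, calorie restricted for 19, ad libitum for 3 and wild type for 8, against 22.6%, 31.3%, 22.1% and 24.0% of all genes.

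Per array, the median of the 31 subunits, taken as the deviation of each from its own 18-array mean, lay between -0.07 and -0.01 in leptin hearts, between 0.02 and 0.11 in calorie restricted hearts, between -0.08 and 0.03 in ad libitum hearts and between -0.09 and 0.05 in wild type hearts. The leptin and calorie restricted arrays did not overlap, whereas the ad libitum and wild type ranges reached into the calorie restricted range. The same median over all genes lay between -0.03 and 0.03 on the 18 arrays.

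**Figure D2:**
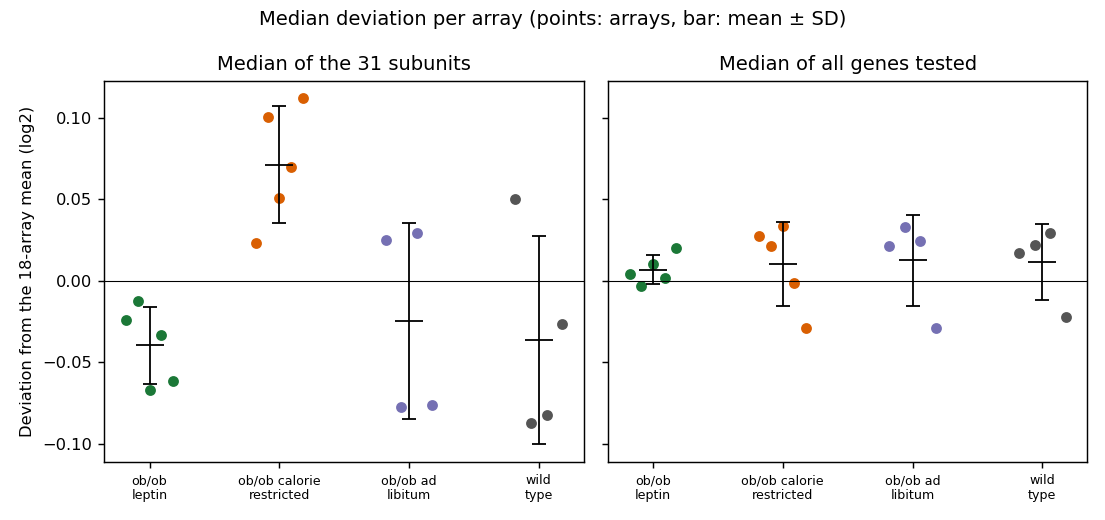
Median deviation of log2 signal from the 18-array mean (y axis) in each array, over the 31 subunits (left) and over all tested genes (right), by group (x axis), with mean and SD. The calorie restricted arrays lie between 0.02 and 0.11 for the subunits, above all 5 leptin arrays.

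From array to array the subunits correlated weakly with each other, which was described without a test. Noise of single measurements lowers r, so a weak r does not show that the subunits move apart. With group means subtracted, the 465 pairs among the 31 subunits had a median Pearson r of 0.19 over the 18 arrays (interquartile range -0.10 to 0.40), against -0.02 between subunits and the 13324 other genes. Psmd12 and Psmc3 had the highest mean correlation with the other subunits, 0.31 and 0.30, and the lid subunit Psmd7 the lowest, -0.07. The subunits share arrays and scaling, and after quantile normalization the median r was 0.08. The order of the subunits changed with it: Psma2 was then highest at 0.17, Psmd12 was at 0.14, Psmc3 at 0.07 and Psmd7 at 0.02, and Psmd1 was lowest at -0.19.

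The other comparisons, of ad libitum with wild type hearts (the ob/ob genotype with no treatment) and of leptin with ad libitum and wild type hearts, called no subunit. In ad libitum against wild type hearts 0 of 35 were called, with 0.299% of all genes called, 0.112% higher and 0.187% lower. At an unadjusted p under 0.05, 1 was higher (Psmc3ip) and 3 lower (Psma7 and the ATPases Psmc1 and Psmc2), against 10.3% of all genes, 5.14% higher and 5.16% lower. Psma7, an alpha ring subunit, had signals of 719, 898, 762, 808 and 794 in leptin, 779, 796, 861, 810 and 856 in calorie restricted, 808, 688, 671 and 721 in ad libitum and 878, 854, 827 and 883 in wild type hearts. The ad libitum arrays all lay below the wild type arrays, with a change of -0.25 ± 0.08 (adjusted p = 0.234), but a second Psma7 probe set was at 0.01. In leptin against ad libitum hearts 0 of 35 were called, with 0.644% of all genes called, 0.404% higher and 0.24% lower, and 0 passed the unadjusted threshold, against 13.5% of all genes, 6.91% higher and 6.64% lower. In leptin against wild type hearts 0 of 35 were called, with 0.00749% of all genes called, and the lid subunits Psmd8 (higher) and Psmd6 (lower) passed the unadjusted threshold, against 10% of all genes, 4.96% higher and 5.05% lower. Psmd6 had signals of 808, 906, 1081, 1088 and 1010 in leptin, 1212, 1074, 1027, 982 and 1205 in calorie restricted, 1275, 1124, 1007 and 915 in ad libitum and 1302, 1231, 1284 and 946 in wild type hearts, so that wild type replicate 4 lay among the leptin arrays. Its change of leptin against wild type was -0.28 ± 0.12 (adjusted p = 0.485), and that of a second Psmd6 probe set with a similar signal was 0.01 (adjusted p = 0.971). A p that misses the threshold does not show equality: the 95% intervals of the 31 subunits reached from -0.53 (Psmc4) to 0.49 (Psmd3) for ad libitum against wild type and from -0.47 (Psmc4) to 0.35 (Psmd7) for leptin against ad libitum hearts.

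**Figure D3:**
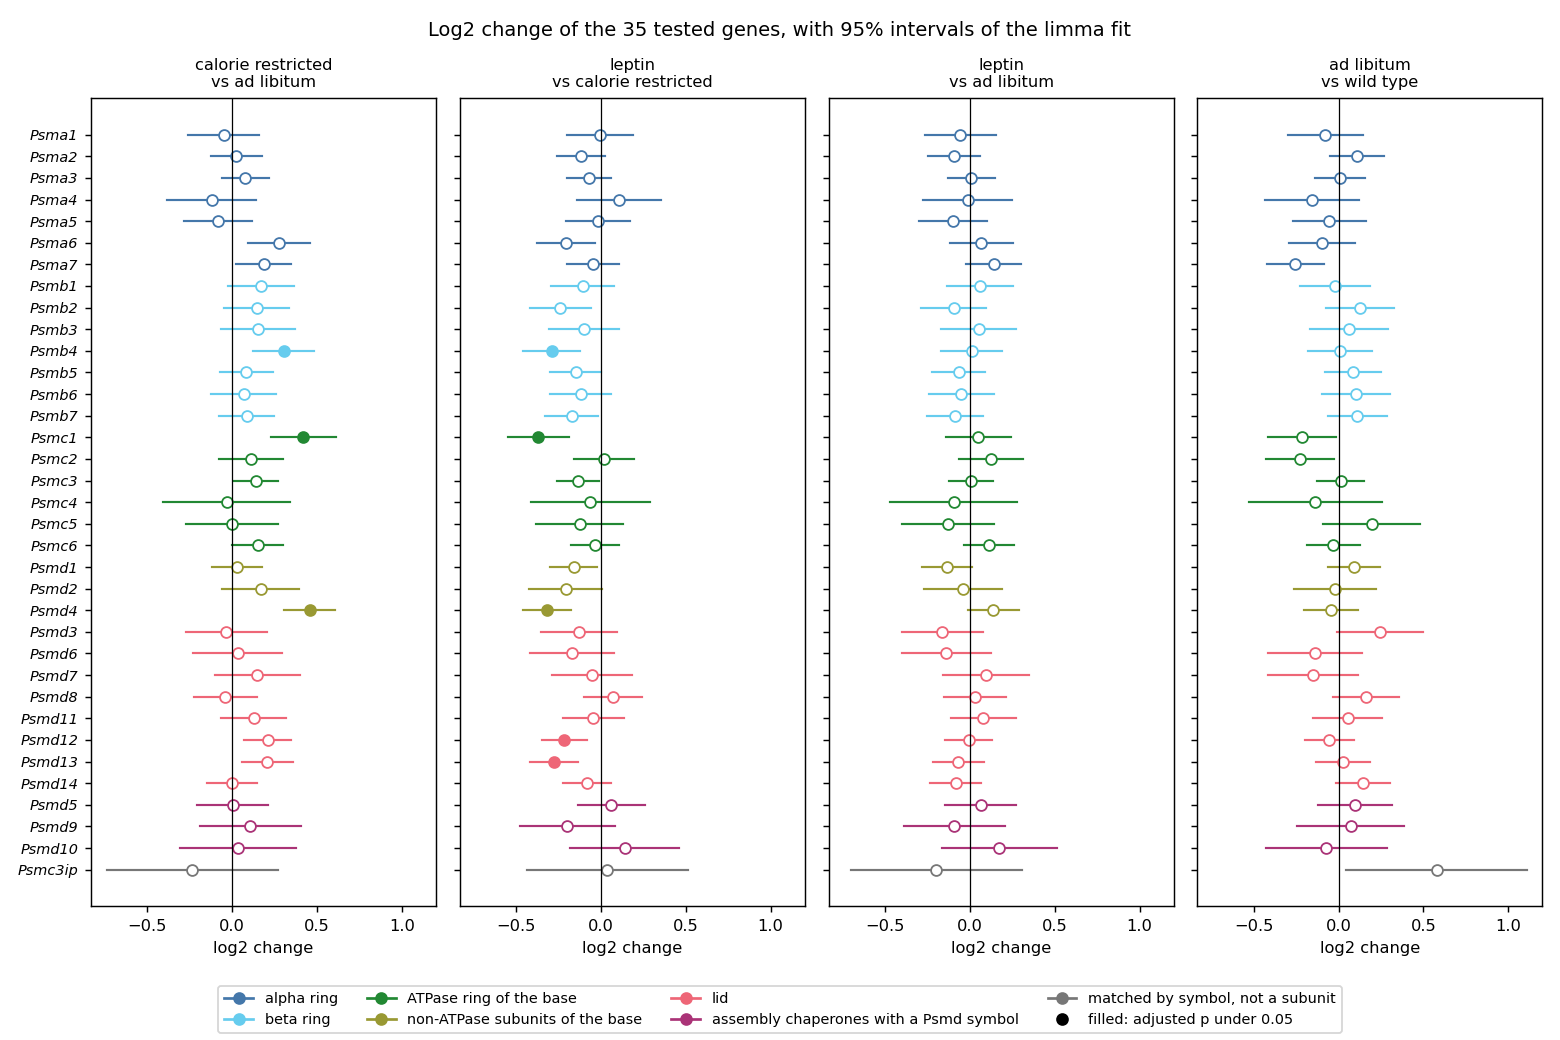
Log2 change with its 95% interval (x axis) of the 35 tested genes (y axis, coloured by part of the particle) in 4 comparisons, filled where the adjusted p was under 0.05. Psmd4, Psmc1 and Psmb4 are filled on the right for calorie restricted against ad libitum hearts and, with Psmd12 and Psmd13, on the left for leptin against calorie restricted hearts, and no gene is filled in the 2 other panels.

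Calorie restricted hearts against wild type hearts gave 3 of 35 genes higher and 0 lower, Psmd4, Psmb4 and Psmd13, with 11.3% of all genes called, 5.02% higher and 6.24% lower. At an unadjusted p under 0.05, 9 were higher and 1 lower, against 11.6% and 12.9% of all genes. In this comparison fibroblast markers were called lower for 7 of 11 and macrophage markers for 8 of 12. The ventricular cardiomyocyte markers had 0 of 12 called and a positive change in 12 of 12, with a median of 0.26, beside 0.23 for Psmd13 and 0.31 for Psmb4. The part of these cells in the subunits' change was not tested. Over all 4 groups together, limma's F test called 4 of 35, Psmd4, Psmc1, Psmb4 and Psmd13, against 12.2% of all genes.

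Promoter sequence of the genes named above was read from RefSeq (GRCm38.p6), the 250 bases before the start, to show what stands in front of them. It is given for the most changed genes, Psmd4 and Psmc1, with the CCAAT box in capitals (these were picked after their values were seen), and for Psmd12 and Psmb5, the changed lid subunit and a catalytic subunit that hold the core of the antioxidant response element, TGACNNNGC, which binds NFE2L1 and NFE2L2, regulators of proteasome genes. Each is printed 5' to 3' on the strand of the gene. Psmd4 lies on chromosome 3 (chr3:95042615-95042864, minus strand), with ATTGG, the box read on the other strand, starting 95 bases before the start of transcription. Psmc1 lies on chromosome 12 (chr12:100109952-100110201, plus strand), with its box 175 bases before. Psmd12 lies on chromosome 11 (chr11:107479278-107479527, plus strand), with GCTGTGTCA, the element on the other strand, 247 bases before. Psmb5 lies on chromosome 14 (chr14:54617996-54618245, minus strand), with TGACGTCGC 47 bases before.
Psmd4: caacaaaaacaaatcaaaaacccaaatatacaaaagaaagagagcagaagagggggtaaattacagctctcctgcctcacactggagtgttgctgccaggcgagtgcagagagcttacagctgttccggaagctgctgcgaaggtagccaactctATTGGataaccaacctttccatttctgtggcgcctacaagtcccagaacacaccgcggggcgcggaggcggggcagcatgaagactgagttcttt
Psmc1: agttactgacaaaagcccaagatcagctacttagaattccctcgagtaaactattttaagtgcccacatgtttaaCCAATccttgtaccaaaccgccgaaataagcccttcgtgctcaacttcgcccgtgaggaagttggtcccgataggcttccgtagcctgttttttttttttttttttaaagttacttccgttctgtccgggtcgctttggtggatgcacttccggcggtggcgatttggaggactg
Psmd12: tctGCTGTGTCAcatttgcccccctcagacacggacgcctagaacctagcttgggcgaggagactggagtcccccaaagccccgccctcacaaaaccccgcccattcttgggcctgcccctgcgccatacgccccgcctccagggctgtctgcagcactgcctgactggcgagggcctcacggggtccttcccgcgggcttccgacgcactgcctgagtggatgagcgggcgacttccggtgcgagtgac
Psmb5: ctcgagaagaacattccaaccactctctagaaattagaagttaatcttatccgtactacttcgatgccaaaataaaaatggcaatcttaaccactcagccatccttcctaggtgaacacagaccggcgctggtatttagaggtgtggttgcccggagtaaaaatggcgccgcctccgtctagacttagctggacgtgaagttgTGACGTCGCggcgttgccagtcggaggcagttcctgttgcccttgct

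In these windows 25 of the 31 subunits had 27 promoters in the table, and each motif was searched on both strands, so 1 promoter can hold several. The antioxidant element core stood in 4 of the 27 (14.8%), of Psmd12, Psmb5, Psmc6 and Psmb6, against 10.2% of 32851 promoters. The CCAAT box stood in 10 (37%), against 33.8%, and GGGCGG, the GC box, in 14 (51.9%), against 32.7%. A match is a description of letters and not of a site in use. Of the genes that hold the element core, Psmd12 was called in leptin against calorie restricted hearts, and Psmb5, Psmb6 and Psmc6 were not called. Of the other called genes, Psmd4, Psmc1, Psmb4 and Psmd13, the windows hold no match to the element core, which says nothing of the factors that bind it.

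The inducible catalytic subunits Psmb8, Psmb9 and Psmb10 replace Psmb5, Psmb6 and Psmb7 in the immunoproteasome of immune-activated cells. All 3 were higher in leptin than in calorie restricted hearts, by 0.72 (Psmb8, adjusted p = 3.11e-04), 0.70 (Psmb9, adjusted p = 0.00266) and 0.39 (Psmb10, adjusted p = 0.0296), while their constitutive partners were not called. Psmb8 had signals of 120, 160, 129, 112 and 122 in leptin hearts, of 74.4, 86.6, 74.8, 64.0 and 79.0 in calorie restricted hearts, of 103, 98.9, 102 and 94.7 in ad libitum hearts, and of 120, 116, 105 and 149 in wild type hearts. The calorie restricted arrays were the lowest throughout. The within-array log2 ratio of each inducible to its constitutive partner was then compared by exact permutation tests, adjusted over 18 tests. In leptin against calorie restricted hearts the ratio rose by 0.87 for Psmb8 over Psmb5, by 0.82 for Psmb9 over Psmb6 and by 0.56 for Psmb10 over Psmb7 (exact two-sided p = 0.00794 each, the smallest 5 against 5 arrays allow, adjusted p = 0.0318). In calorie restricted against ad libitum hearts the ratio fell by 0.46 and 0.66 for the first pairs (adjusted p = 0.0318 each, exact permutation), and Psmb10 over Psmb7 differed by -0.03 (adjusted p = 0.891). In ad libitum against wild type hearts the 3 ratios differed by -0.36, 0.00 and -0.43 (exact p = 0.0286, 1 and 0.0571), with adjusted p of 0.0514, 1 and 0.0857. In calorie restricted against wild type hearts the ratios differed by -0.82, -0.66 and -0.46 (exact permutation, adjusted p = 0.0318 each). For leptin against ad libitum hearts Psmb8 over Psmb5 differed by 0.41 (adjusted p = 0.0318), and the other pairs by 0.16 and 0.53 (adjusted p = 0.352 and 0.052). Leptin against wild type hearts gave 0.05, 0.16 and 0.10 (adjusted p between 0.469 and 0.839). In all, 9 of 18 passed, and 0 passed when a calorie restricted array was left out. The smallest exact p for the comparisons with that group is then 0.0159 or 0.0286, so this loss does not show that the ratios changed. With any 1 array left out, the leptin against calorie restricted ratios stayed between 0.78 and 0.92, 0.77 and 0.86, and 0.49 and 0.64.

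**Figure D4:**
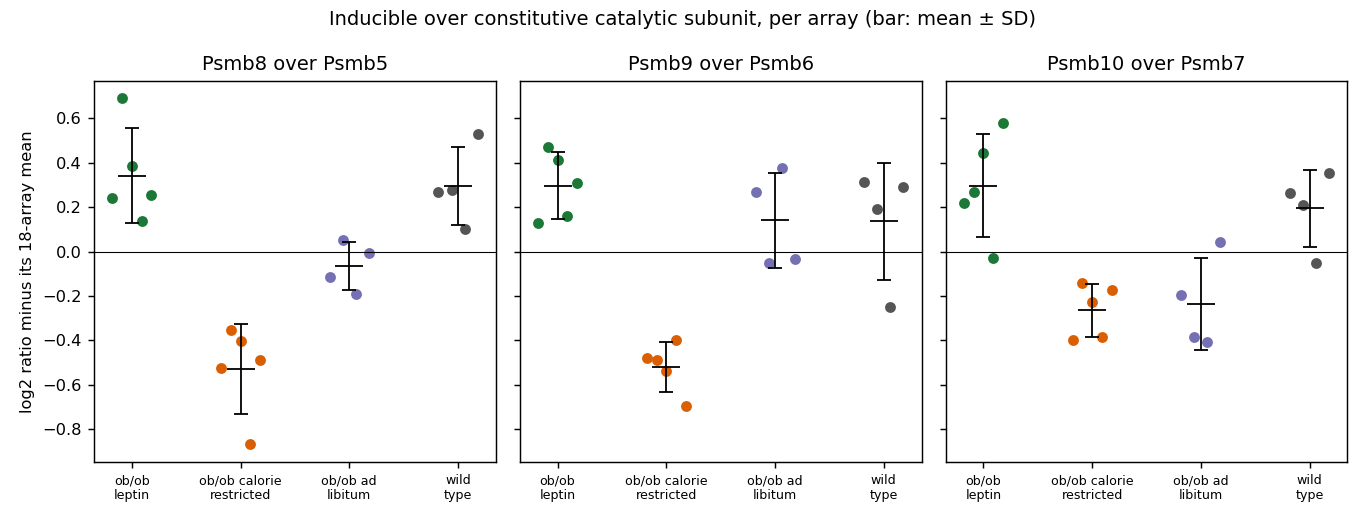
Within-array log2 ratio of each inducible catalytic subunit to its constitutive partner, less its 18-array mean (y axis), by group (x axis), with mean and SD. The calorie restricted points lie lowest for Psmb8 over Psmb5 and Psmb9 over Psmb6, and the leptin points above them in all 3 pairs.

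Psmb8 to Psmb10 are abundant in immune cells, and macrophage and connective tissue markers differed between the same groups. Fibroblast markers were called lower in calorie restricted than in ad libitum hearts for 6 of 11, with a negative change in 10. In leptin against calorie restricted hearts 8 of 11 were called higher, with a positive change in 10. Over all genes, 2.96% were called lower in the first comparison and 7.91% higher in the second. The summed signal of the fibroblast markers ranged between 5929 and 7112 in leptin, 4208 and 5479 in calorie restricted, 5507 and 6321 in ad libitum and 5245 and 10320 in wild type hearts. Macrophage markers were called lower in calorie restricted than in ad libitum hearts for 3 of 12, with a negative change in 10. In leptin against calorie restricted hearts 8 of 12 were called higher, with a positive change in 12. Their sums were 3570 to 5075 in leptin, 2090 to 3023 in calorie restricted, 3003 to 3897 in ad libitum and 3325 to 6013 in wild type hearts. Endothelial markers were called lower in calorie restricted than in ad libitum hearts for 2 of 11, with a negative change in 9. In leptin against calorie restricted hearts 4 of 11 were called higher, with a positive change in 11. No fibroblast, macrophage or endothelial marker was below the pseudocount on every array. Of 8 T and B cell markers on the array, 4 passed the filter, and 0 of these were called in either comparison. Their change was positive in 3 of 4 for calorie restricted against ad libitum hearts and in 1 of 4 for leptin against calorie restricted hearts. The part of any of these cells in the change of the inducible or constitutive subunits was not tested. Atrial markers ranged more widely in calorie restricted hearts (sum 1979 to 16650) than in leptin hearts (2149 to 3404). Without calorie restricted replicates 2 and 3, Psmd4 remained called, by 0.42 against ad libitum hearts (adjusted p = 0.0163) and -0.28 for leptin against calorie restricted hearts (adjusted p = 0.0461), as were Psmc1 at 0.47 (adjusted p = 0.0199) and -0.42 (adjusted p = 0.0137), and Psmd13 at -0.29 for leptin against calorie restricted hearts (adjusted p = 0.0424). Psmb4 and Psmd12 were not called without those arrays.

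Genes that act with the proteasome were described in short lists, and no list was tested as a set. In calorie restricted against ad libitum hearts 2.46% of all genes were called higher and 2.96% lower. In leptin against calorie restricted hearts the shares were 7.91% and 5.73%, and in calorie restricted against wild type hearts 5.02% and 6.24%. These shares stand beside all the lists that follow. Of 9 proteasome-bound deubiquitinases and shuttle proteins, Uchl5, which trims ubiquitin chains on the base, averaged 295 ± 28.4 in leptin, 378 ± 37.5 in calorie restricted, 274 ± 10.0 in ad libitum and 321 ± 34.5 in wild type hearts. It rose by 0.45 ± 0.09 in calorie restricted against ad libitum hearts (adjusted p = 0.00862) and changed by -0.35 in leptin against calorie restricted hearts (adjusted p = 0.0128). Ubqln4, a shuttle, was lower in leptin than in calorie restricted hearts (-0.38, adjusted p = 0.00907). Of 4 core activators and inhibitors, Psme3, an activator of the core in the nucleus, was called, at -0.62 ± 0.19 in leptin against calorie restricted hearts (adjusted p = 0.0371). The other 3 were at -0.24 (Psme1), -0.17 (Psme4) and -0.26 (Psmf1), each with an unadjusted p under 0.05 and an adjusted p between 0.1001 and 0.184.

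Of 9 regulators of the NFE2L1 pathway, 0 were called between calorie restricted and ad libitum hearts. Keap1, the adaptor that targets NFE2L2 for degradation, was 0.44 higher in calorie restricted than in wild type hearts (adjusted p = 0.00551) and lower by 0.27 in leptin than in calorie restricted hearts (adjusted p = 0.0484). The transcription factors were not called: Nfe2l1 was at 0.06 (adjusted p = 0.890) and Nfe2l2 at 0.16 (adjusted p = 0.499) for calorie restricted against ad libitum hearts. Of 9 muscle ubiquitin ligases, Trim54, a sarcomeric ligase, rose by 0.40 ± 0.10 in calorie restricted against ad libitum hearts (adjusted p = 0.0255) and changed by -0.39 in leptin against calorie restricted hearts (adjusted p = 0.0105). The atrophy ligases Trim63 and Fbxo32 were not called, at 0.12 and 0.30 for calorie restricted against ad libitum hearts (adjusted p = 0.650 and 0.340).

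Of 9 COP9 signalosome subunits, a complex related in structure to the lid, Cops6 rose by 0.27 in calorie restricted against ad libitum hearts (adjusted p = 0.0402), and Cops5 and Cops6 were lower in leptin than in calorie restricted hearts (-0.40, adjusted p = 9.77e-04, and -0.23, adjusted p = 0.0331). Of 8 genes of the p97 segregase, Derl2 fell by 0.39 in calorie restricted against ad libitum hearts (adjusted p = 0.0177) and was 0.37 higher in leptin than in calorie restricted hearts (adjusted p = 0.00862), and Ufd1 was lower in leptin than in calorie restricted hearts (-0.32, adjusted p = 0.0184). The 5 core assembly chaperones and the 8 TCP1 chaperonin subunits had 0 calls in both comparisons, with medians of -0.05 and 0.06 for calorie restricted against ad libitum hearts and -0.03 and 0.09 for leptin against calorie restricted hearts.

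Several subunits are measured by more than 1 probe set. Of 14 other sets with a mean signal of at least 100, belonging to 12 genes, 10 had the same sign as the chosen set for calorie restricted against ad libitum and 12 for leptin against calorie restricted hearts, but 7 for calorie restricted against wild type. The chosen sets of Psma6, Psmc2 and Psmd11 are of a type whose probes can match several transcripts. Psmd11, a lid subunit, had signals of 1915, 1814, 1579, 1613 and 1485 in leptin, 1799, 1752, 1504, 1870 and 1740 in calorie restricted, 1474, 1468, 1801 and 1611 in ad libitum and 1562, 1525, 1504 and 1509 in wild type hearts, with every group overlapping. Its sets disagreed: the chosen one was at -0.05 (adjusted p = 0.776) for leptin against calorie restricted hearts and another, with a mean signal of 436, at 0.36 (adjusted p = 0.0107). A set with a mean signal of 1128 had the direction of the called subunits, at 0.28 for calorie restricted against ad libitum (adjusted p = 0.0252), 0.25 for calorie restricted against wild type (adjusted p = 0.0317) and -0.16 for leptin against calorie restricted hearts (adjusted p = 0.117).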

How the data were processed

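The deposited values are linear signal intensities, made by the authors with MAS5 (per the submitters' processing notes) in a version not given in the sources used here. Trimmed by 2% at either end, the probe sets of each array averaged 100.001, so the intensities had been scaled to remove differences in total signal.

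Of 45101 probe sets, 34945 had 1 gene symbol in the platform annotation, 932 had several and 9160 were not listed. Each gene was represented by its single-symbol set with the highest mean. Signals were transformed to log2(signal + 5.13), 5.13 being the 20th percentile of all signals, and genes with a mean under 4.36 (the 40th percentile) were left out. Changes on this scale are understated for low signals. One limma 3.58.1 model (R 4.3.3) with a coefficient per group was fitted to the 18 arrays with 14 residual degrees of freedom, p-values being two-sided and Benjamini-Hochberg adjusted over 13359 genes. Exact permutation tests used SciPy 1.17.1. The fit was tested on simulated data.

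Every gene called in any comparison, the gene of smallest p in each, and the highest of each part of the particle were named with the values of all arrays. The genes and lists were chosen with earlier results of these data known. The labels list separate samples and do not say that each came from its own animal, so p-values measure only the spread between these samples, which may be partly technical. The replicate numbers were not used to pair the samples in the main fit. Deviations from the group means correlated between -0.18 and 0.34 in 25 same-numbered pairs (median -0.03). In 96 other pairs they correlated between -0.35 and 0.33 (median 0.01). Such values cannot exclude a pairing. Alternatives in normalization, filter, pseudocount, probe set, covariates and left-out arrays were run.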

Additional observations from a re-analysis of the deposited data

Results flagged for a closer look

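Of 60 groups of array values examined, 1 held an array far from the others: Psmc3 in wild type replicate 3 had a signal of 1221, while the other wild type arrays lay between 1288 and 1295. Chance alone gives about 1 such group in 20.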

How the results depend on the processing

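The direction of all 11 called changes held in all alternatives run for them. Psmd4 was uncalled only with the mean of its probe sets, and Psmc1 in leptin against calorie restricted hearts was called in all 23. The Psmc1 call against ad libitum hearts ended in 2 of 22. Psmb4 lost its calls in 14 of 22 (against ad libitum), 8 of 23 (leptin against calorie restricted) and 8 of 22 alternatives (against wild type), Psmd13 in 2 of 23 (leptin against calorie restricted) and 16 of 22 (against wild type), and Psmd12 in 11 of 23. The 3 comparisons with 0 calls kept 0 in all 65 alternatives.

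For calorie restricted against ad libitum hearts, 5 genes were called with a mean trend, and 1 with the atrial covariate or with only 2 groups in the fit. For leptin against calorie restricted, 3 were called with the atrial covariate or without calorie restricted replicates 2 and 3, and 2 with only 2 groups. For calorie restricted against wild type, 1 was called without those replicates or with 2 groups (Psmd4), and 1 with averaged probe sets (Psma1, lower, and none of the 3 called otherwise). The F test called 2 with no filter, with median-centred arrays or without those replicates, and 1 with the atrial covariate. With the replicate block, 2 were called for calorie restricted against ad libitum and 3 for leptin against calorie restricted. For calorie restricted against wild type 1 was called, and 2 by the F test. Whether the replicate numbers pair the samples is not known.

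Leaving out single arrays gave 2 to 3, 3 to 6, 1 to 4 and 2 to 5 calls in the same order, and 0 to 0 in the other comparisons. The catalytic ratios passed in 0 to 11 of 18 tests, with 0 whenever a calorie restricted array was left out, where the smallest p is 0.0159 or 0.0286. The median correlation was 0.0835 after quantile normalization. The cause of the other shifts was not tested.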
